A study of Homo sapiens with 9 samples.

Results

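The proteasome genes described here are the protein-coding genes of the expression table whose symbol starts with PSMA to PSMG followed by a number, leaving out the immunoproteasome genes PSMB8, PSMB9 and PSMB10. Of 22290 genes with values, 43 matched this rule, and 4 other annotated genes that match it (PSMA2, PSMA3, PSMB11 and PSMD9) were not analysed here. Among the 43, 41 encode subunits, activators, an inhibitor or assembly factors of the proteasome, and these 41 are counted below as the members. The other 2, PSMC3IP and PSME3IP1, share only the start of their symbols with them and are given apart.

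RNA was sequenced from 9 libraries of the established line IMR-32, which comes from a human neuroblastoma, to find which genes differ when the amount of TRAP-1, a mitochondrial chaperone of the Hsp90 family, is altered. Parental cells (PAR, labelled WT), cells whose label gives a knockdown of TRAP-1 (KD) and cells whose label gives its overexpression (OE) had 3 libraries each. The KD and OE cells had been made in earlier work, and whether each is 1 clone is not given in the sources used here. The study's methods state that RNA was isolated in triplicate from each of the 3 kinds of cell. Nothing there or in the labels says that the 3 libraries of a group came from separate cultures. The p-values thus measure only the spread between these libraries, which may be technical.

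Values are regularized log2 values (rlog), which correct for library size and pull each value toward the mean of its gene, so that a difference of rlog values tends to be smaller than a log2 ratio of counts. The counts behind each value, and so the depth of each library, cannot be read from these values. A gene was called higher or lower where its adjusted p in limma, a moderated linear model, was under 0.05 after Benjamini-Hochberg adjustment over all 22290 genes.

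TRAP1 (ENSG00000126602, chr16:3651639-3717553, minus strand on GRCh38) was measured first as a check of the labels. Its rlog values were 10.67, 10.66 and 10.65 in the parental libraries, 10.79, 10.79 and 10.83 in those labelled KD and 10.67, 10.63 and 10.74 in those labelled OE. Under the KD label all 3 values lay above the parental ones, and under the OE label they overlapped them. TRAP1 RNA was higher in the libraries labelled KD by 0.14 (standard error 0.025, adjusted p = 1.8e-05 in limma), and in those labelled OE the difference from parental was 0.018 (95% confidence interval -0.033 to 0.069, adjusted p = 0.643 in limma). That difference (TRAP1, OE against PAR) was -0.012 without OE replicate 3 (adjusted p = 0.782), -3.9e-05 with each library centred on its median, and 0.064 (adjusted p = 0.0343) with the median of each 20-Mb block of the genome removed. The RNA thus went against the knockdown label, and every direction below is that of libraries labelled KD or OE, not of a measured loss or gain of TRAP-1. Other annotated genes overlap 28.5% of the exonic bases of TRAP1.

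The labelled cell type was checked against its defining markers. Of 13 markers of sympathetic neuroblastoma cells 9 had values, and 4 of these had a mean rlog under 5 over the 9 libraries, in a table that runs from 0.14 to 18.54: PHOX2A (1.34), MYCN (2.54), TH (2.73), which makes the first step of catecholamine synthesis, and CHGA (3.97). The most abundant of the list was ISL1 (9.29). MYCN, which IMR-32 cells are known to carry amplified, was thus near the low end, and the cells are called by their labels only. The study's methods state that the line had been authenticated. The log2 of the summed levels of this list was 10.67, 10.63 and 10.64 in parental libraries, 10.53, 10.51 and 10.55 under the KD label and 10.54, 10.62 and 10.59 under the OE label. In it, 1 marker was called higher and 5 lower under the KD label, and 0 higher and 2 lower under the OE label. Of all genes, 26.9% were called higher and 26.9% lower under the KD label, and 16.9% higher and 18% lower under the OE label. The counts of the list depend on single libraries. Under the OE label 4 were called lower without OE replicate 2, with CHGA (adjusted p = 0.0173) and GATA2 (0.0412) added, 4 also with each library centred on its median, and 1 without parental replicate 1, where CHGB lost its call (0.102). Under the KD label MYCN, the marker called higher, lost its call without parental replicate 2 (0.123), and the number called lower was 4 to 6 with 1 library left out.

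Markers of other cell types were read in the same way. Of 5 mesenchymal markers, all with values, VIM was the most abundant (mean rlog 15.89) and the summed levels were 16.11, 16.10 and 16.10 in parental libraries, 16.25, 16.26 and 16.25 under the KD label and 16.36, 16.34 and 16.37 under the OE label. In the list, 1 was called higher and 1 lower under the KD label, and 2 higher and 0 lower under the OE label. Without KD replicate 1, COL1A2 was called higher too under the KD label (adjusted p = 0.0367), and PDGFRB was called higher under the OE label without OE replicate 1 (0.0472) or parental replicate 3 (0.0336). PDGFRB was also called higher under the OE label with replicate number as a block (adjusted p = 0.0306). The same held in a fit of only the 2 groups compared (0.0294) and among genes of mean rlog at least 5 (0.0489). FN1, which encodes fibronectin, had means of 13.97 in parental libraries, 13.01 under the KD label and 14.52 under the OE label. Of 10 epithelial markers 7 had values, with KRT18 (12.04) the most abundant, EPCAM at 2.58 and KRT5 at 1.46. Their summed levels were 12.74, 12.74 and 12.73 in parental libraries, 12.78, 12.82 and 12.83 under the KD label and 12.59, 12.58 and 12.59 under the OE label. Of these 7, 2 were called higher and 1 lower under the KD label, and 1 higher and 4 lower under the OE label. Under the KD label CLDN4 was also called lower without KD replicate 3 (adjusted p = 0.0267) and KRT18 also called higher without KD replicate 1 (0.0309), and with block medians removed 3 were called lower, EPCAM (0.0178) and KRT5 (0.0202) among them. KRT14 had means of 7.54, 6.85 and 7.05, KRT8 of 8.70, 9.09 and 9.10, DSP of 9.70, 10.08 and 9.51 and CLDN4 of 10.10, 10.04 and 9.53 in the PAR, KD and OE groups, so that members of this list went both ways. Of 4 immune markers 2 had values. The leukocyte marker PTPRC had a mean of 2.65, and LYZ, the more abundant and the list's marker called lower under both labels, had means of 5.99, 5.68 and 5.80 in the same order. The summed levels of the immune list were 6.12, 6.15 and 6.10 in parental libraries, 5.84, 5.87 and 5.83 under the KD label and 5.90, 5.91 and 6.04 under the OE label. The part of these marker differences in the results on the proteasome was not tested, and in bulk RNA fewer cells with a transcript and less of it per cell cannot be told apart.

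The proteasome is the protease complex that degrades most ubiquitin-tagged proteins. Its core particle is a barrel of stacked rings of alpha and beta subunits, and the beta subunits PSMB5, PSMB6 and PSMB7 carry the active sites inside. A regulatory particle caps the barrel, with a base whose ATPases unfold the substrate and a lid that removes ubiquitin, and other caps (the activators PSME1 to PSME4) can take its place. Dedicated chaperones assemble the parts, and the transcription factor NFE2L1 is known to raise many subunit genes together through antioxidant response elements in their promoters.

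Promoter sequences are shown for 4 members because they cover both directions, a choice made after their values were seen: PSMD6, PSMD12 and PSMD3 fell in the libraries labelled KD, and PSME1 rose. RefSeq promoter windows (GRCh38.p14, 300 bases around the annotated start) were found for 35 of the 41 members. Not among the matched were PSMA7, PSMB1, PSMB6, PSMB7, PSMD4 and PSMG3. Capitals mark matches to TGACNNNGC, the core of the antioxidant response element, on either strand. The windows are PSMD12 (chr17:67366528-67366827, minus strand), PSMD3 (chr17:39980557-39980856, plus strand), PSME1 (chr14:24135944-24136243, plus strand) and PSMD6 (chr3:64023445-64023744, minus strand), each given 5′ to 3′ in the direction of the gene.
PSMD12: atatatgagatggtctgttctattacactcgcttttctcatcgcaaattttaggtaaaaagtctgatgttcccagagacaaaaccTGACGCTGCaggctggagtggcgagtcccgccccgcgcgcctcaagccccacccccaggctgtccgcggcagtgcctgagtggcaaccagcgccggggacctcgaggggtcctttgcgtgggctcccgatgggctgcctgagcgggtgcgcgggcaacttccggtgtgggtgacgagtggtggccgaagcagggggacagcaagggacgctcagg
PSMD3: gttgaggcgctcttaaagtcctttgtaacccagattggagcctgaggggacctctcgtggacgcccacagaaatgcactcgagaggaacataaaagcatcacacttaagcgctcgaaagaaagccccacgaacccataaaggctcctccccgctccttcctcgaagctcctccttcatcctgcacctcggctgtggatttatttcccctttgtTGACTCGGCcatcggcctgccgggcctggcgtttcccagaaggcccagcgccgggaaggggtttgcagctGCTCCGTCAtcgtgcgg
PSME1: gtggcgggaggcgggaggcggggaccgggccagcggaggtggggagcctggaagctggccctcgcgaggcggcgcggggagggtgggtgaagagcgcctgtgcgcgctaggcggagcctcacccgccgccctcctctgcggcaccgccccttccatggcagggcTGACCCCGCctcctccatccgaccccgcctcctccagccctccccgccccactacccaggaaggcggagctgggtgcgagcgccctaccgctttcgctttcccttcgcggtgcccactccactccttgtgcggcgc
PSMD6: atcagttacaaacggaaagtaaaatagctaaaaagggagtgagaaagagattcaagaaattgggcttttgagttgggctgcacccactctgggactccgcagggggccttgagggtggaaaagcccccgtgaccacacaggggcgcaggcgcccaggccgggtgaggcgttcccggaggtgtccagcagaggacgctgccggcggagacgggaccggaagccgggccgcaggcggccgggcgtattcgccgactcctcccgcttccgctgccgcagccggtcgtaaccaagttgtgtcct

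A match is a run of letters and no evidence of binding. The counts of members called in this paragraph stand against 26.9% of all genes called lower and 26.9% called higher under the KD label, or 41.3% and 35.8% in the range of mean rlog that holds 37 of the members. TGACNNNGC was found in 13 of 35 members (37.1%), against 16.1% of all 27305 genes with windows and 18.8% of those that also had expression values. Of the 13 members with the match, 10 were called lower and 2 (PSME1 and PSME2) higher in the libraries labelled KD, with a median difference of -0.19. Of the 22 without it, 16 were called lower, with a median of -0.13. PSMD6, the member with the lowest difference, has no match in its window, and PSME1, the member with the highest, has 1. The window shown for PSMD6 lies within the span of the gene given below, so it does not hold the outermost annotated start. CCAAT was found in 16 members (45.7%, against 39.7% of all genes and 42% of those with expression values). Of these 16, 15 were called lower and 0 higher in the libraries labelled KD. Of the 19 without it, 11 were called lower and 2 higher. CACGTG was found in 2 (5.71%, against 8.77% of all genes and 11.5% of those with expression values), PSMB3 and PSME3.

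Most members were lower in the libraries labelled KD than in parental libraries. Of the 41, 30 were called lower (73.2%, against 26.9% of all genes), 2 were called higher (4.88%, against 26.9% of all genes) and 9 were not called. The median difference over the members was -0.14, with a range from -0.48 to 0.29, and the median over all genes was -0.00051. Calls are more frequent among well expressed genes. Of 6907 genes in the range of mean rlog that holds 37 of the members, a range chosen after seeing the values, 41.3% were called lower in the libraries labelled KD and 35.8% higher, with a median difference of -0.011. All 30 members called lower had their 3 values of the KD label below the 3 parental values. Such a separation nearly comes with a call and adds little to it. It also held for 24 of the 25 other ubiquitin-proteasome genes, listed below, that were called lower there, and its share over all genes is not given. With 1 library left out the number of members called lower was 28 to 30. It was 31 with each library centred on its median and 30 after quantile normalization.

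In the libraries labelled OE most of the members called against parental were lower too. Here 21 of 41 were called lower (51.2%, against 18% of all genes and 34.6% of those in the same range of mean rlog) and 1 was called higher (2.44%, against 16.9%). The member called higher was PSME1, and PSMA1 was called higher as well without OE replicate 1 (adjusted p = 0.0487) or parental replicate 3 (0.00619). The median difference was -0.053, beside 0.00039 over all genes and -0.015 over those in the same range of mean rlog. It moved with scaling, to -0.071 with each library centred on its median (28 members called lower) and -0.034 after quantile normalization (16 called lower). With block medians removed it was -0.040, and 4 members were called higher and 20 lower. Both comparisons use the same parental libraries. Set directly against the KD label, the OE label had 26 members called higher (63.4%, against 23.5% of all genes) and 2, PSME1 and PSME2, were called lower (4.88%, against 23.8%), with a median difference of 0.080 beside 0.00078 over all genes.

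**Figure D1:**
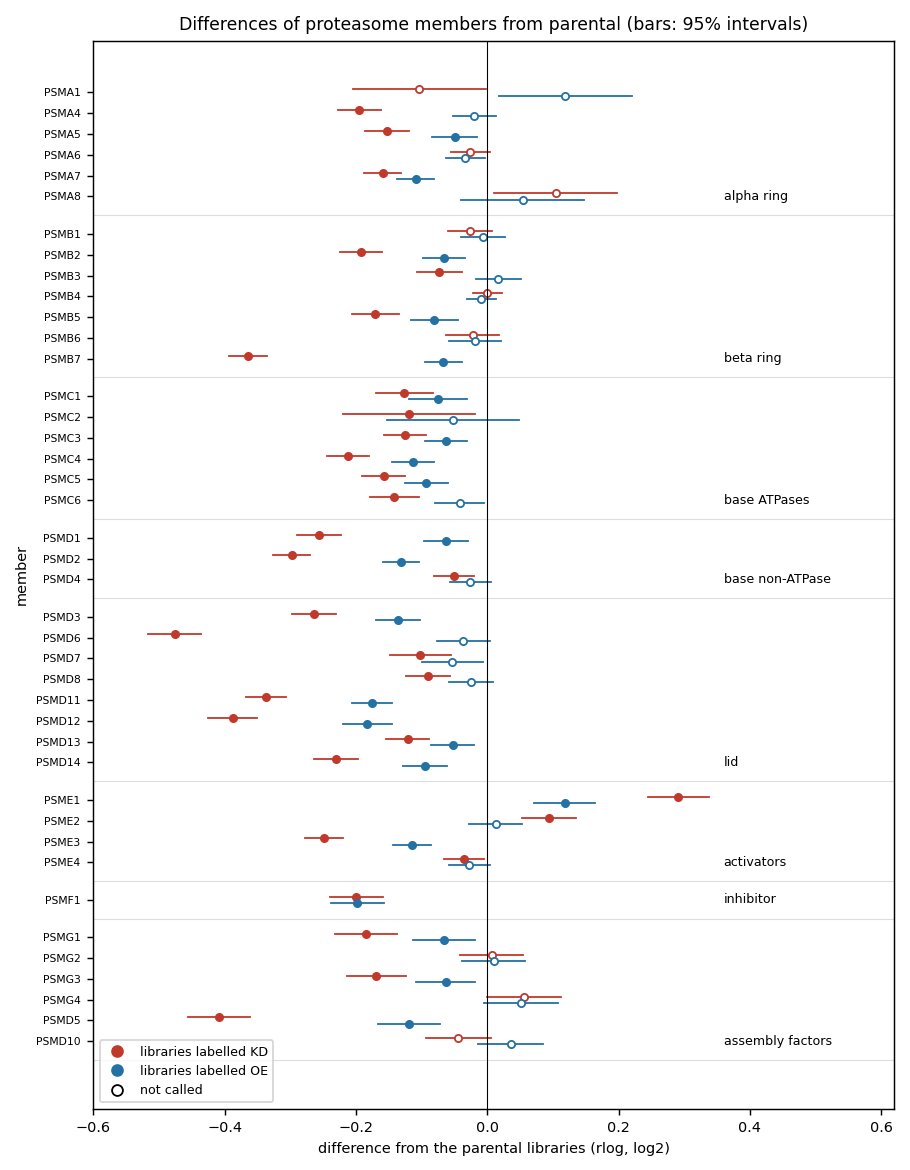
Difference of each of the 41 members from the parental libraries on the rlog (log2) scale, for the libraries labelled KD (red) and OE (blue), grouped by role, with 95% confidence intervals from limma as bars and open circles for members that were not called. PSMD6 is lowest at -0.48 and PSME1 highest at 0.29, both in the libraries labelled KD.

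The roles differed in how many of their members were called. All 17 members of the regulatory particle were called lower in the libraries labelled KD, with a median difference of -0.16, against 7 of 13 members of the core particle, with a median of -0.10. Within the regulatory particle the 8 lid subunits had a median of -0.25, the 3 base subunits that are not ATPases -0.26 and the 6 ATPases -0.13. In the libraries labelled OE, 11 of 17 regulatory and 5 of 13 core members were called lower, with medians of -0.063 and -0.020. These medians were -0.060 and -0.0085 with block medians removed, and 3 core members, PSMA1, PSMB3 and PSMB7, were called higher there and 4 lower. Before that correction the shares called lower were 64.7% and 38.5%, against 18% of all genes and 34.6% of those in the same range of mean rlog. Under the KD label the core share was 53.8%, against 26.9% and 41.3%. PSMA1, PSMA6 and PSMA8 of the core, and PSMC2 of the regulatory particle, lie below that range. These 3 core members were called under neither label. The core members called lower, 5 under the OE label and 7 under the KD label, were thus all among the 10 within the range. The core shares are therefore not shares among genes of like level. The 17 of 17 rests in part on 2 weak calls, those of PSMC2 and of PSMD4, and the latter was lost without parental replicate 2 (adjusted p = 0.0814), as was the former (0.147). Under the OE label the calls of PSMA5 and PSMD13 were lost in the same way, PSMA5 without parental replicate 2 (0.111) or OE replicate 2 (0.113) and PSMD13 without parental replicate 1 (0.0543). PSMC1 lost its OE call with block medians removed (-0.075, then -0.036, adjusted p = 0.197) and after quantile normalization (0.0616). Other OE calls were gained. With each library centred on its median, 16 regulatory and 6 core members were called lower under the OE label. PSMC6, PSMD4, PSMD6, PSMD7 and PSMD8 were the regulatory members added there. After quantile normalization, 9 regulatory and 4 core members were called lower under the OE label. Whether the roles differ from each other was not tested. Leaving out PSMA1, PSMA6 and PSMC2, a choice made after seeing their low values, left 29 members called lower and 2 higher under the KD label.

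**Figure D2:**
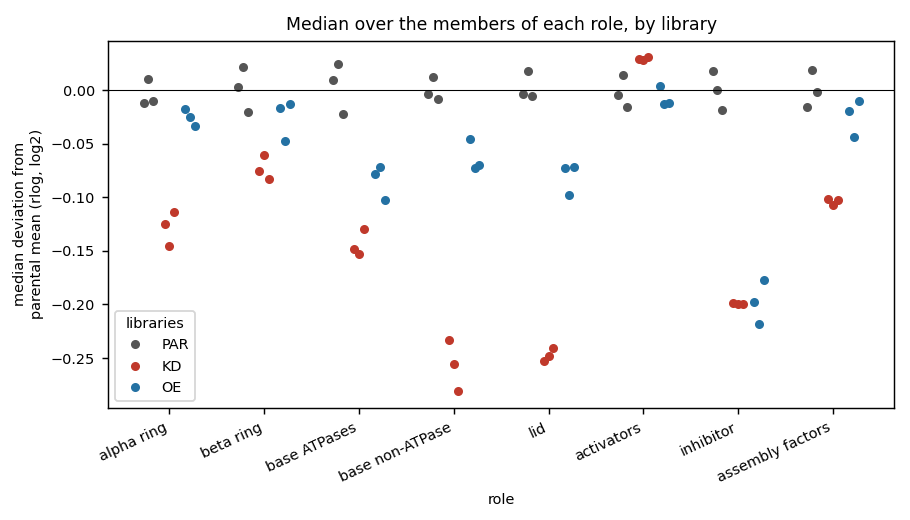
Median over the members of each role of the deviation from the parental mean (rlog, log2), 1 point for each of the 9 libraries. The lid medians lie from -0.25 to -0.24 in the libraries labelled KD and from -0.098 to -0.072 in those labelled OE.

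In the catalytic core, the 3 subunits with active sites did not share 1 pattern. PSMB5, which carries the chymotrypsin-like site (ENSG00000100804, chr14:23016543-23035230, minus strand), had rlog values of 12.45, 12.48 and 12.43 in the parental libraries, 12.27, 12.29 and 12.29 in those labelled KD and 12.37, 12.36 and 12.39 in those labelled OE. No value of the KD label reached a parental value, nor did any of the OE label. The differences from parental were -0.17 for the KD label (standard error 0.017, adjusted p = 5.0e-10) and -0.081 for the OE label (adjusted p = 3.8e-04).

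PSMB6, which carries the caspase-like site (ENSG00000142507, chr17:4796144-4798502, plus strand), had values of 11.94, 11.95 and 11.89 in the parental libraries, 11.89, 11.90 and 11.91 in those labelled KD and 11.93, 11.88 and 11.91 in those labelled OE. The groups overlapped, and its differences of -0.022 (95% confidence interval -0.062 to 0.017) and -0.019 (-0.058 to 0.021) were not called. PSMB7, which carries the trypsin-like site (ENSG00000136930, chr9:124353465-124415444, minus strand), had values of 13.37, 13.38 and 13.36 in the parental libraries, 13.01, 13.01 and 13.00 in those labelled KD and 13.29, 13.31 and 13.31 in those labelled OE. The libraries labelled KD stood well below the rest and those labelled OE just below parental, with differences of -0.36 (standard error 0.014, adjusted p = 1.2e-20) and -0.067 (adjusted p = 2.5e-04). The difference of PSMB7 was close to that of its neighbours on chromosome 9, given below.

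Of the other beta subunits, PSMB2 was called lower under both labels (-0.19 for KD and -0.066 for OE). PSMB3 was called lower for the KD label (-0.073) and was not called for the OE label (0.017, adjusted p = 0.487). With block medians removed, PSMB3 was called higher for the OE label (0.041, adjusted p = 0.046). PSMB1 and PSMB4 were not called against parental, except under the KD label with block medians removed (adjusted p = 2.2e-04 and 0.00144). In the alpha ring, which gates entry to the barrel, PSMA4 (-0.19), PSMA5 (-0.15) and PSMA7 (-0.16) were called lower in the libraries labelled KD. PSMA8, a subunit known from testis, had a mean rlog of 6.77 and a difference of 0.10 under the KD label that was not called (adjusted p = 0.0556), but was called without KD replicate 1 (0.0239) or parental replicate 1 (0.0316).

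Some essential subunits had levels far below their partners. Compared per length (mean rlog minus log2 of the kb of all annotated exons), PSMA6 had a level of -1.98, PSMC2 of 2.62 and PSMA1 of 3.03, while the other members of the core and regulatory particles apart from PSMA8 (5.85) lay between 8.61 and 13.38. Their mean rlog values were 0.72 for PSMA6, 5.73 for PSMC2 and 4.64 for PSMA1. Each lies over other annotated genes that also have values: PSMA6 and PSMA1 each over an unnamed protein-coding gene on the same strand (ENSG00000258790, mean rlog 4.36, and ENSG00000256206, 3.77), and PSMC2 over DNAJC2, SLC26A5 and PMPCB. The share of exonic bases in common was 14.1% for PSMA6, 26.7% for PSMA1 and 3.58% for PSMC2. The part of these overlaps in the low values was not tested, and the values of these 3 genes are uncertain as measures of their transcripts. PSMC1 shares 76.1% of its exonic bases with other genes, NRDE2 on the opposite strand among them, and has 13 annotated pseudogenes, so that its value is uncertain too.

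On the same scale per length, the 10 core members in that range had a median level of 11.60 and the 16 regulatory members one of 10.34. Their median rlog values before this correction were close, at 12.72 and 12.55. The length is that of all annotated exons and not of the transcripts present, so this gap is no measure of transcript abundance. The highest level per length was that of PSMB4 at 13.38. The 6 assembly factors had a median level per length of 9.18.

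**Figure D3:**
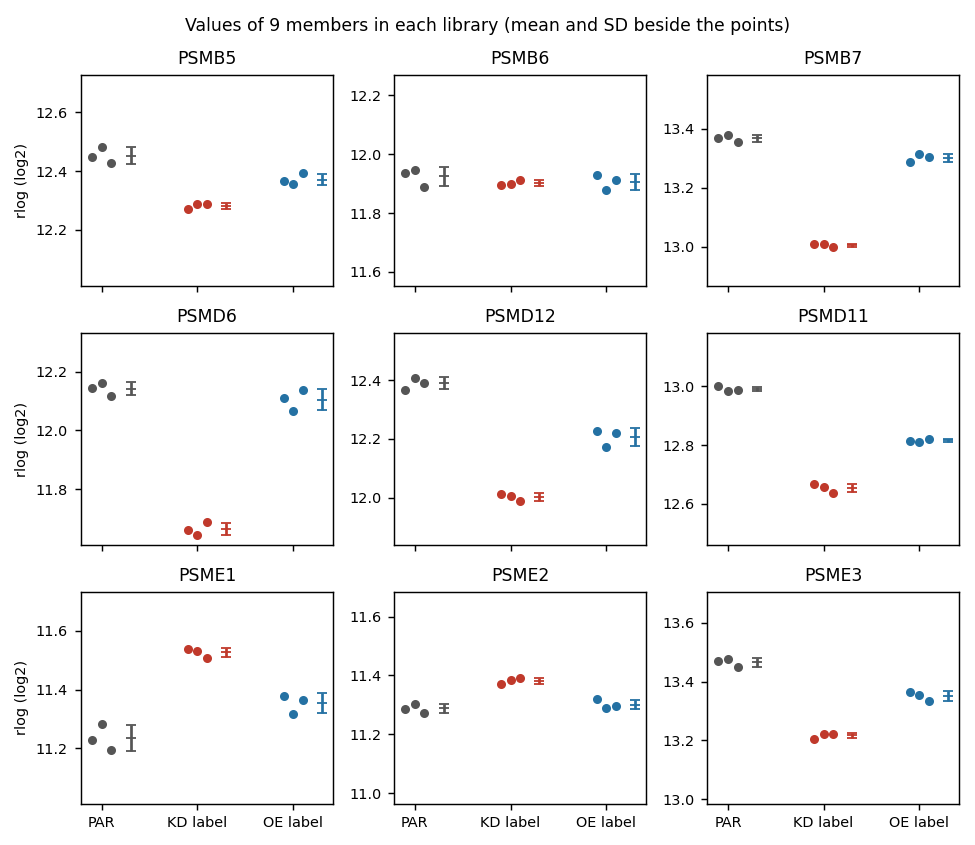
rlog values (log2) of 9 members in each library, with the mean and SD of each group (n = 3) beside the points, on axes of equal span. PSMD6 is low under the KD label and overlaps parental under the OE label, PSMD11 and PSMD12 lie in between under the OE label, and PSME1 is higher under both.

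The lid held the lowest difference of the members. PSMD6, a scaffold subunit of the lid (ENSG00000163636, chr3:64010550-64024010, minus strand), had values of 12.14, 12.16 and 12.12 in the parental libraries, 11.66, 11.65 and 11.69 in those labelled KD and 12.11, 12.07 and 12.14 in those labelled OE. The libraries labelled KD lay apart from all others, while those labelled OE overlapped parental. PSMD6 fell by 0.48 under the KD label (standard error 0.02, adjusted p = 8.7e-20 in limma) and differed by -0.036 under the OE label (adjusted p = 0.165). The OE difference of PSMD6 was -0.054 with each library centred on its median (adjusted p = 0.0349) and -0.092 with block medians removed (3.9e-04), and was called in both. Against the KD label the OE label was higher by 0.44 (adjusted p = 1.1e-18 in limma).

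For PSMD12, another lid scaffold (ENSG00000197170, chr17:67337916-67366605, minus strand), the values were 12.37, 12.41 and 12.39 in the parental libraries, 12.01, 12.00 and 11.99 in those labelled KD and 12.23, 12.17 and 12.22 in those labelled OE. The 3 groups did not overlap, with the OE label in the middle. The differences from parental were -0.39 under the KD label (standard error 0.018, adjusted p = 2.6e-18) and -0.18 under the OE label (adjusted p = 9.7e-10). The same order was seen in PSMD11 (ENSG00000108671, chr17:32444379-32483319, plus strand), with values of 13.00, 12.98 and 12.99 in the parental libraries, 12.67, 12.66 and 12.64 in those labelled KD and 12.81, 12.81 and 12.82 in those labelled OE and differences of -0.34 and -0.18 (adjusted p = 5.9e-19 and 3.2e-11).

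PSMD3 (ENSG00000108344, chr17:39980807-39997959, plus strand), also of the lid, had values of 12.93, 12.92 and 12.89 in the parental libraries, 12.63, 12.65 and 12.66 in those labelled KD and 12.76, 12.76 and 12.80 in those labelled OE. Its groups did not overlap either, and it differed from parental by -0.26 and -0.14 (adjusted p = 3.2e-15 and 4.3e-08). PSMD14, the deubiquitinase of the lid, was called lower under both labels (-0.23 and -0.095), and the remaining lid members PSMD7, PSMD8 and PSMD13 lay between -0.12 and -0.091 under the KD label, PSMD8 coming to -0.059 with block medians removed. Other annotated genes overlap 31.2% of the exonic bases of PSMD7.

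In the base, PSMD2 (ENSG00000175166, chr3:184299198-184309050, plus strand), a large scaffold that receives substrates, had values of 13.43, 13.45 and 13.42 in the parental libraries, 13.14, 13.13 and 13.14 in those labelled KD and 13.30, 13.31 and 13.29 in those labelled OE. Again the groups were apart, with parental highest. PSMD2 differed from parental by -0.30 (standard error 0.014, adjusted p = 1.3e-18) and by -0.13 (adjusted p = 2.2e-09). Its scaffold partner PSMD1 differed by -0.26 and -0.063, the latter not called with block medians removed (adjusted p = 0.202), and the ubiquitin receptor PSMD4 by -0.051 under the KD label, a call lost without parental replicate 2 (adjusted p = 0.0814) and a difference that came to -0.092 with block medians removed. All 6 ATPases were called lower under the KD label, from -0.21 for PSMC4 to -0.12 for PSMC2, whose call was lost without KD replicate 1 (adjusted p = 0.0721) or 2 (0.135) and without parental replicate 1 (0.089) or 2 (0.147).

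The activators went both ways. PSME1 (ENSG00000092010, chr14:24136163-24138967, plus strand), the alpha subunit of the interferon-inducible cap PA28, had values of 11.23, 11.28 and 11.19 in the parental libraries, 11.54, 11.53 and 11.51 in those labelled KD and 11.38, 11.32 and 11.37 in those labelled OE. The libraries labelled KD were highest and those labelled OE in the middle, with no overlap. PSME1 rose by 0.29 under the KD label (standard error 0.023, adjusted p = 1.0e-12 in limma) and by 0.12 under the OE label (adjusted p = 9.5e-05).

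PSME2 (ENSG00000100911, chr14:24143362-24147570, minus strand), the beta subunit of the same cap, lies close to PSME1 on chromosome 14. It had values of 11.29, 11.30 and 11.27 in the parental libraries, 11.37, 11.38 and 11.39 in those labelled KD and 11.32, 11.29 and 11.29 in those labelled OE. It rose by 0.094 under the KD label (adjusted p = 1.7e-04), with no overlap with parental, while the values of the OE label overlapped parental (difference 0.013, adjusted p = 0.686). With block medians removed the KD difference was 0.047 (adjusted p = 0.039), beside a neighbour median of 0.051. PSME2 has 6 annotated pseudogenes, whose part in its value was not tested.

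PSME3 (ENSG00000131467, chr17:42824385-42843760, plus strand), the nuclear activator PA28 gamma, had values of 13.47, 13.48 and 13.45 in the parental libraries, 13.21, 13.22 and 13.22 in those labelled KD and 13.36, 13.35 and 13.33 in those labelled OE. It fell under both labels with no overlap between groups (differences -0.25 and -0.11, adjusted p = 2.5e-16 and 5.1e-08). PSME4 (ENSG00000068878, chr2:53864069-53970993, minus strand), the activator PA200, had values of 12.82, 12.82 and 12.85 in the parental libraries, 12.80, 12.79 and 12.79 in those labelled KD and 12.80, 12.80 and 12.80 in those labelled OE. Its difference of -0.035 under the KD label was at the threshold (adjusted p = 0.0473) and lost its call in 8 other fits, among them those without KD replicate 2 (adjusted p = 0.118) or 3 (0.115) and without parental replicate 1 (0.0535) or 3 (0.198). Under the OE label the PSME4 difference of -0.027 was not called (adjusted p = 0.178 in limma). It was called lower there with each library centred on its median (0.018) or with block medians removed (0.0284).

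PSMF1 (ENSG00000125818, chr20:1113240-1189415, plus strand), an inhibitor of the core particle, had values of 11.55, 11.53 and 11.51 in the parental libraries, 11.33, 11.33 and 11.33 in those labelled KD and 11.34, 11.32 and 11.36 in those labelled OE. Both labels lay below parental and overlapped each other. The differences were -0.20 and -0.20 (adjusted p = 2.8e-10 and 1.2e-09), and the direct difference between the labels was 0.0018 (95% confidence interval -0.039 to 0.042).

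Among the 6 assembly factors, 3 were called lower under the KD label (50%, against 26.9% of all genes and 41.3% of those of like level). PSMD5 (ENSG00000095261, chr9:120815496-120842951, minus strand), a chaperone of the base, had values of 11.02, 11.03 and 11.06 in the parental libraries, 10.67, 10.60 and 10.62 in those labelled KD and 10.94, 10.92 and 10.90 in those labelled OE. The 3 groups were apart, and the differences from parental were -0.41 (standard error 0.023, adjusted p = 3.5e-16) and -0.12 (adjusted p = 1.1e-04). PSMG1 (-0.19) and PSMG3 (-0.17), which help to build the alpha ring, were called lower under the KD label, and PSMG2, the partner of PSMG1 in 1 complex, was not (0.0064, 95% confidence interval -0.041 to 0.054). PSMG4 and PSMD10 were not called against parental. With block medians removed, PSMD10, a chaperone of the base with 3 annotated pseudogenes, was called lower under the KD label (-0.044, then -0.12, adjusted p = 2.3e-05), and under the OE label its sign turned and it was called lower (0.036, then -0.077, adjusted p = 0.00612). PSMD10 was also called lower under the KD label without parental replicate 3 (adjusted p = 0.0345). Under the OE label PSMD5, PSMG1 and PSMG3 were called lower, but PSMG1 (-0.065) lost its call without OE replicate 2 (adjusted p = 0.11) or parental replicate 2 (0.14) or 3 (0.0528). PSMG3 (-0.063) lost its call without OE replicate 1 (0.0904) or 2 (0.106) or parental replicate 1 (0.075) or 2 (0.0827), and with block medians removed (0.272). Of the genes that share only the prefix, PSMC3IP, a meiotic recombination factor, was called lower under both labels (-0.12 and -0.22) and PSME3IP1 under neither.

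Position on the chromosome was compared with these differences, since neighbouring genes moved together in places. PSMB7 and PSMD5 lie in the same 20-Mb block of chromosome 9, where 162 neighbours (other genes whose mean rlog was 8 or more) had a median difference of -0.34 under the KD label and -0.10 under the OE label. With the median of each block removed in every library, the KD difference of PSMB7 was -0.017 (adjusted p = 0.325 in limma) and its call was lost, and its OE difference was 0.036 (adjusted p = 0.0416). PSMD5 came to -0.060 (adjusted p = 0.0318) under the KD label and -0.015 (adjusted p = 0.653) under the OE label.

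The neighbours of PSMF1 on chromosome 20 had medians of -0.11 and -0.14, and its differences came to -0.060 and -0.052 with block medians removed. PSMA7, at the other end of that chromosome, lost its call under the OE label, from -0.11 to -0.0085, beside a neighbour median of -0.12. PSMD2 went the other way. Its 76 neighbours on chromosome 3 had a median of 0.23 under the KD label, and its difference came to -0.54 with block medians removed. For PSMD6 (0.022), PSMD11 (-0.012), PSMD12 (-0.029) and PSME1 (0.051) the neighbour medians under the KD label were small beside the members' own differences. Over all 41 members, 33 were called lower and 2 higher under the KD label after this correction, with a median of -0.12. Whether copy number differs between the cells was not tested.

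**Figure D4:**
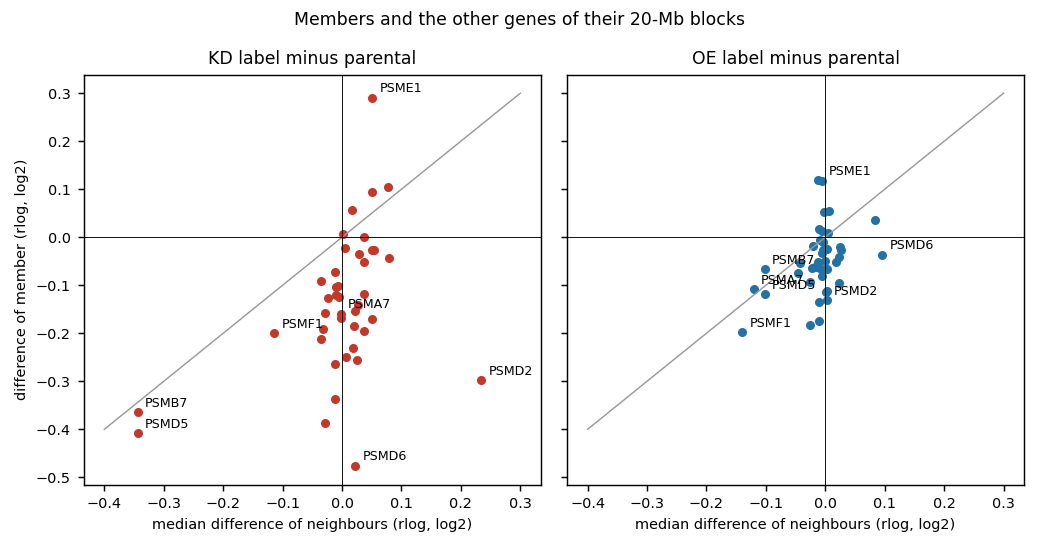
Difference of each member from parental (vertical axis) against the median difference of its neighbours in the same 20-Mb block (horizontal axis), both in rlog (log2), for the libraries labelled KD (left) and OE (right), with the line of equal values in grey. PSMB7 and PSMD5 lie near the line at a neighbour median of -0.34, and PSMD2 lies far below it at 0.23.

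Other genes of the ubiquitin-proteasome system were taken from 8 lists of 46 genes, of which 45 had values. Under the KD label 25 were called lower and 9 higher, with a median difference of -0.081, and under the OE label 23 were called lower and 7 higher, with a median of -0.064. As shares, 55.6% were lower and 20% higher under the KD label (all genes: 26.9% and 26.9%), and 51.1% and 15.6% under the OE label (all genes: 18% and 16.9%). With block medians removed the medians were -0.054 and -0.034.

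By list, the counts called higher and lower under the KD label and then the OE label were 1 and 3, then 1 and 2, of 4 assembly and import factors, 0 and 5, then 0 and 4, of 7 proteins that associate with the proteasome, and 1 and 4, then 1 and 7, of 8 shuttles. They were 2 and 4, then 0 and 4, of 6 genes of the p97 unfoldase, 1 and 5, then 2 and 4, of 9 genes of transcriptional control (NFYA, the other of that list, was not analysed here), and 2 and 1, then 3 and 1, of 5 ubiquitin and E1 genes. Among all genes 26.9% were called higher and 26.9% lower under the KD label (35.8% and 41.3% of those of like level), and 16.9% and 18% under the OE label (24.1% and 34.6%), so that in lists of 4 to 9 genes several of these counts lie near the shares over all genes.

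Some of these small counts changed with the libraries or the fit. AKIRIN2 lost its OE call without OE replicate 1 (adjusted p = 0.0503) or 2 (0.0888), without parental replicate 1 (0.0679) and with no variance trend (0.0537), which leaves 1 assembly and import factor called lower. Of the ubiquitin and E1 genes, UBA1 lost its OE call without OE replicate 1 (0.0748) or parental replicate 1 (0.0628), while under the KD label UBA1 was called lower without KD replicate 3 (0.0399) or parental replicate 3 (0.0203). With no variance trend or after quantile normalization, 1 of that list was called higher under either label and 0 lower under the OE label, and 1 of the p97 genes was called higher under the OE label after quantile normalization. NFYB, the only gene of transcriptional control called higher under the KD label (0.072), lost that call without KD replicate 1 (0.0549) or parental replicate 1 (0.113). IPO9 lost its KD call without KD replicate 2 (0.0551) or 3 (0.0575) or parental replicate 1 (0.0612). NGLY1 lost its KD call without KD replicate 2 (0.0619) or 3 (0.0769) or parental replicate 2 (0.102). Without OE replicate 2, the associated protein ZFAND2A (0.0766) and the shuttles UBQLN2 (0.0714) and UBQLN4 (0.0648) lost their OE calls. Removing block medians brought the number called lower to 3 and 2 associated proteins under the KD and OE labels and 4 shuttles under the OE label, and the number called higher to 2 and 1 genes of transcriptional control, and it left 1 ubiquitin and E1 gene higher and 2 lower under the KD label. AKIRIN2, UBA1, NFYB, IPO9, NGLY1, ZFAND2A, UBQLN2 and UBQLN4 were named after their values were seen.

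The KD median of the associated proteins was -0.23, and -0.038 with block medians removed, where ECPAS on chromosome 9 lost its call (-0.33, then 0.021) and ZFAND5 on the same chromosome turned (-0.31, then 0.064, adjusted p = 0.00724). These were named after their values were seen. The subunits without a PSM symbol, SEM1, ADRM1 and UCHL5, were all called lower under the KD label (-0.086, -0.27 and -0.16). Under the OE label only ADRM1, a ubiquitin receptor, was called among these 3, at -0.28 (-0.18 with block medians removed), though SEM1 (0.033) was called higher after quantile normalization (adjusted p = 0.0336) or with block medians removed (0.0165).

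Of the 3 immunoproteasome genes, whose products replace the catalytic subunits after interferon, 2 were called higher and 0 lower under the KD label, where 26.9% of all genes were called higher. PSMB8 had values of 10.20, 10.14 and 10.15 in the parental libraries, 10.28, 10.29 and 10.31 in those labelled KD and 10.08, 10.12 and 10.09 in those labelled OE, and rose by 0.13 under the KD label (adjusted p = 5.7e-05). PSMB9 rose by 0.14 there (adjusted p = 0.00469), and PSMB10 was not called (-0.068, adjusted p = 0.237), but was called lower without KD replicate 3 (0.045). Other annotated genes overlap 39.4% of its exonic bases. Under the OE label limma called 0 of the 3, but PSMB8 (-0.064, adjusted p = 0.0539) was called lower without OE replicate 2 (0.0458) or parental replicate 2 (0.0411) and with each library centred on its median (0.0146). PSMB8 and PSMB9 lie close together on chromosome 6, where 149 neighbours of PSMB8 had a median of 0.073 under the KD label. With block medians removed PSMB8 came to 0.064 (adjusted p = 0.0289) and PSMB9 lost its call (adjusted p = 0.126), as it did without parental replicate 3 (0.0926).

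NFE2L1 RNA did not differ detectably between the groups. Its values were 13.37, 13.35 and 13.37 in the parental libraries, 13.36, 13.38 and 13.38 in those labelled KD and 13.36, 13.36 and 13.38 in those labelled OE, and its differences from parental were 0.010 (95% confidence interval -0.018 to 0.038) and 0.0016 (-0.026 to 0.029). NFE2L2, its relative in the oxidative stress response, was not called either (-0.029 and -0.0069), with 38.4% of its exonic bases overlapped by other genes. Both are known to be controlled mostly through the stability and processing of the protein, which RNA does not measure. NFE2L3, the next member of that family, had values of 9.91, 9.88 and 9.99 in the parental libraries, 9.34, 9.39 and 9.46 in those labelled KD and 9.71, 9.73 and 9.73 in those labelled OE, with no overlap between the groups. NFE2L3 fell by 0.53 under the KD label (adjusted p = 1.6e-15) and by 0.20 under the OE label (adjusted p = 5.1e-06), and other genes overlap 28.1% of its exonic bases.

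The small MAF proteins pair with these factors on DNA. MAFF had differences of -0.35 and -0.33 and MAFK of -0.15 and -0.28 under the KD and OE labels, all called lower. MAFG was also called lower under both (-0.15 and -0.095), but its OE call was lost without OE replicate 2 (adjusted p = 0.172) and with block medians removed (-0.039, adjusted p = 0.337). POMP, the chaperone that completes the core particle, was called lower under both labels (-0.13 and -0.12), the KD difference coming to -0.086 with block medians removed.

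Among the shuttles, which carry ubiquitin-tagged proteins to the proteasome, RAD23B and UBQLN1 had the lowest differences under the KD label (-0.44 and -0.43). NBR1 and SQSTM1, autophagy receptors of the same list, are named after their values were seen. SQSTM1 was called lower under both labels (-0.18 and -0.24, or -0.17 and -0.25 with block medians removed), and NBR1 went the other way and rose by 0.36 under the KD label (adjusted p = 3.5e-20), or 0.35 with block medians removed, and by 0.13 under the OE label. RAD23B and UBQLN1 lie on chromosome 9, beside neighbour medians of -0.36 and -0.36, and came to -0.098 and -0.085 with block medians removed. NSFL1C, a cofactor of the p97 unfoldase, fell by 0.31 under the OE label (adjusted p = 2.8e-13), or by 0.16 with block medians removed, beside a neighbour median of -0.14. Its difference under the KD label was -0.081, or 0.059 with block medians removed.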

How the data were processed

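Total RNA of 9 libraries (3 parental, 3 labelled KD and 3 labelled OE) was sequenced by the authors. Per the submitters' processing notes and the study's methods, reads were trimmed with cutadapt, mapped to GRCh38 with HISAT2 and counted with featureCounts of Subread, and the deposited values are regularized log2 values from DESeq2. Versions and whether counting used strand are not given in the sources used here. The study's methods give a general read coverage, and the depth of each library cannot be read from these values.

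From the deposited log2 values, differences between groups were fitted in R 4.3.3 with limma 3.58.1 (variance trend, all 9 libraries, no covariates), with Benjamini-Hochberg adjustment over 22290 genes and calls at an adjusted p under 0.05. The fit was tested on simulated data. Symbols, positions and exonic lengths came from GENCODE release 44, which matched 22195 identifiers, and promoters from RefSeq. Neighbours were genes of the same 20-Mb block whose mean rlog was 8 or more. Every library is given for the catalytic subunits, the activators and, in each comparison with parental, the 5 called members with the largest rise and the 5 with the largest fall. Of the related genes, 9 were set by name, with the 3 largest called differences in each comparison. Of the cell type markers and of the related genes, 1 each is not reported here. The members and lists were chosen with earlier results of these data known. Alternatives were another variance model, a filter on mean rlog of at least 5, other scalings, a fit of only the groups compared, a replicate block, removal of block medians, leaving out each library and an adjusted p under 0.01.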

Additional observations from a re-analysis of the deposited data

How the results depend on the processing

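Under the KD label the number of members called lower was 28 to 33 over all alternatives and the number called higher 2 to 3. With replicate number as a replicate block, 29 were called lower and 2 higher under the KD label, and 27 higher and 2 lower in OE against KD. Across genes, deviations from the group mean of libraries with the same number correlated at -0.12 to 0.021 between PAR and KD or OE. Between KD and OE they correlated at 0.22, 0.041 and 0.27 for numbers 1 to 3. The deviations within a group cancel out for each gene, so values for libraries of other numbers follow from these and are no separate comparison. Whether libraries of 1 number were handled together was not tested. The alternative without PSMA1, PSMA6 and PSMC2 was chosen after seeing the data. With 20-Mb block medians removed, the median of the members was -0.12 for KD against PAR and -0.040 for OE against PAR, where 4 members were called higher and TRAP1 had a difference of 0.064. In OE against PAR the median was -0.071 with centred libraries and -0.034 after quantile normalization. With 1 library left out in turn it was -0.057 to -0.039, the number called higher 1 to 2 and the difference of TRAP1 -0.012 to 0.042. With block medians removed, the sign turned for NSFL1C, KD against PAR (0.059), PSMB6, OE against PAR (0.00085), PSMB7, OE against PAR (0.036), PSME2, OE against PAR (-0.0028), UCHL5, OE against PAR (-0.0069), NFE2L1, OE against KD (0.0032), POMP, OE against KD (-0.048), ADRM1, OE against KD (0.075) and PSMB10, OE against KD (0.0046). Of these genes, NSFL1C, PSMB7, POMP and ADRM1 were called with the turned sign. With centred libraries, the sign turned for NFE2L1, KD against PAR (-0.0012), TRAP1, OE against PAR (-3.9e-05), PSME2, OE against PAR (-0.0054), NFE2L1, OE against PAR (-0.016), UCHL5, OE against PAR (-0.00059), PSMB6, OE against KD (-0.0032) and PSMF1, OE against KD (-0.0050). After quantile normalization, the sign turned for PSMB6, OE against PAR (0.0058), NFE2L2, OE against PAR (0.013), NFE2L1, OE against KD (0.0065) and ADRM1, OE against KD (0.0051). With 1 library left out, the sign of some small differences turned, and they ran from -0.0057 to 0.0053 for NFE2L1, OE against PAR, from -0.024 to 0.0082 for NFE2L2, OE against PAR, from -0.024 to 0.086 for PSMB9, OE against PAR, from -0.0079 to 0.018 for PSMB6, OE against KD, from -0.0085 to 0.012 for PSMF1, OE against KD, from -0.047 to 0.023 for ADRM1, OE against KD and from -0.048 to 0.036 for PSMB10, OE against KD. Among the other members and related genes, block median removal also turned the sign, with a call, of ZFAND5 (KD against PAR, 0.064), NGLY1 (KD against PAR, 0.16), UBA6 (KD against PAR, -0.28), PSMD10 (OE against PAR, -0.077), PSMB4 (OE against KD, 0.037), ECPAS (OE against KD, -0.044), VCP (OE against KD, 0.080), NGLY1 (OE against KD, -0.12) and UBA6 (OE against KD, 0.31). Of the results recomputed for single genes that the rule names (not TRAP1 and not the other members), 1154 kept their direction and side of the threshold, 23 lost a call, 11 gained 1 and 30 turned. The cause of these shifts was not tested. The counts behind each value are not in the table, so what depth limits cannot be given.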
